A study of Mus musculus with 42 samples.

Results

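RNA polymerase II (Pol II), the enzyme that transcribes protein-coding genes, was mapped by ChIP-seq in wild-type mouse macrophages that had been exposed to lipopolysaccharide (LPS) for 18 h, and its amount over each gene was compared with that in unstimulated cells. The comparison rests on 6 of the 42 libraries of the series, 3 labelled 18 h and 3 labelled 0 h. Each gene was given the tags, per 10 M tags of the library, that deposited regions place between 500 bp before its start and 500 bp past its end, and each region's tags were shared out by length of overlap. Of 21897 protein-coding genes, 13359 had a value above 0 in at least 2 of the 3 libraries of either time and were tested.

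The cells came from the marrow of male C57Bl6/J mice aged 6 to 12 weeks and were differentiated for 7 days with L929-conditioned medium, which supplies the growth factor CSF-1. They received 100 ng/ml LPS for 0, 1 or 18 h, so every 18 h library comes from cells that saw LPS throughout. All mice of the comparison were wild type for Nr4a1, the gene of the nuclear receptor Nur77. The Nur77-KO cells, which are used below only as a further set of libraries, came from littermates in which the gene had been removed in the whole body by a CMV-driven Cre. The methods of the study state that these mice no longer expressed Cre, whereas the genotype label of the KO samples reads cre. The same protocol was used for both genotypes, and the sources call the 3 libraries of a group biological replicates without tying them to single mice. The p-values therefore measure the spread between these libraries. The catalogue number of the Pol II antibody differs between the sample labels and the methods of the study.

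The 0 h libraries held 26.1 to 36.1 M tags and the 18 h libraries 26.2 to 35.1 M. Deposited regions held 61.6%, 71.5% and 71.1% of the tags at 0 h and 79.3% to 79.9% at 18 h, so replicate 1 of the 0 h group stood apart from its group. Pearson correlations of log2 values between replicates ran from 0.988 to 0.992 within both groups. They were taken over the 10648 genes above 0 in every Pol II library of the series, which leaves out genes at 0 in any of them. The macrophage label was checked on 10 markers, all of which carried Pol II. By the limits defined with the main counts, 4 of them rose and 3 fell at 18 h, with a median log2 change of 0.07. Over all tested genes 12.6% rose and 14.1% fell. The summed value of the 10 markers was 24500 to 28940 tags at 0 h and 50670 to 53410 tags at 18 h, of which Adgre1 alone made up 4132 to 5102 and 26688 to 26868 tags. Because the tags are scaled to the total of each library and no spike-in was used, every change below is relative to the rest of the library. In these bulk samples fewer cells with Pol II on a gene and less Pol II per cell cannot be told apart.

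LPS is the outer-membrane lipid of Gram-negative bacteria and is bound by the receptor complex of TLR4, MD-2 (Ly96) and CD14. Signalling through the adaptor MyD88 activates NF-kB and AP-1 within minutes and drives a first wave of cytokine and chemokine genes. Signalling through TRIF leads to interferon beta, which is secreted and acts back on the cells, so that interferon-stimulated genes follow later. Many first-wave genes are shut down again by inhibitors that the response itself induces, such as IkB-alpha, A20 and SOCS proteins. The 18 h time point shows where Pol II lay once the first wave had passed.

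After 18 h, Pol II was higher on 1689 genes (12.6% of those tested) and lower on 1888 genes (14.1%), at a limma adjusted p under 0.05 and a change of more than 1 on the log2(tags + 10) scale. Genes past both limits are said below to have risen or fallen. The median change over all tested genes was -0.004. With the tags of the input libraries subtracted, 1450 genes rose and 2802 fell, so that 34.1% of the calls were gains instead of 47.2%. Each input is a single library, and in wild type its regions held 11.0% of the tags at 0 h and 19.8% at 18 h. With a pseudocount of 50 in place of 10, 1238 rose and 993 fell, and 55.5% were gains. The genes that rose had a median value of 142 tags at 0 h and 540 tags at 18 h. The genes that fell had a median of 163 tags at 0 h and 41.6 tags at 18 h. In 1681 of the genes that rose and 1879 of those that fell the 3 values of the groups did not overlap, against 69.5% of all genes tested. On the log2 scale 117 genes rose by more than 4 and 56 genes fell by more than that. None of the 3 libraries at 0 h had a region on 113 of the genes that rose, and none at 18 h had one on 350 of those that fell.

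The redistribution covered a large share of the Pol II tags. Genes that rose held 9.98% to 10.3% of all tags over tested genes in the 0 h libraries and 33.0% to 33.4% in the 18 h libraries. Genes that fell held 19.99% to 20.58% at 0 h and 4.74% to 4.91% at 18 h. These shares describe the genes by the values that chose them. At 1 h, in libraries that entered the choice only through the shared estimate of the spread, the genes that rose held 23.5% to 23.8% of the tags and those that fell 13.7% to 13.8%. Regions spread along the genes that rose, from a median of 20.6% of the gene window to 66.1%, and shrank on the genes that fell from 26.3% to 5.41%. The median gene length was 29.1 kb for genes that rose, 28.4 kb for genes that fell and 23.2 kb for all tested.

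**Figure D1:**
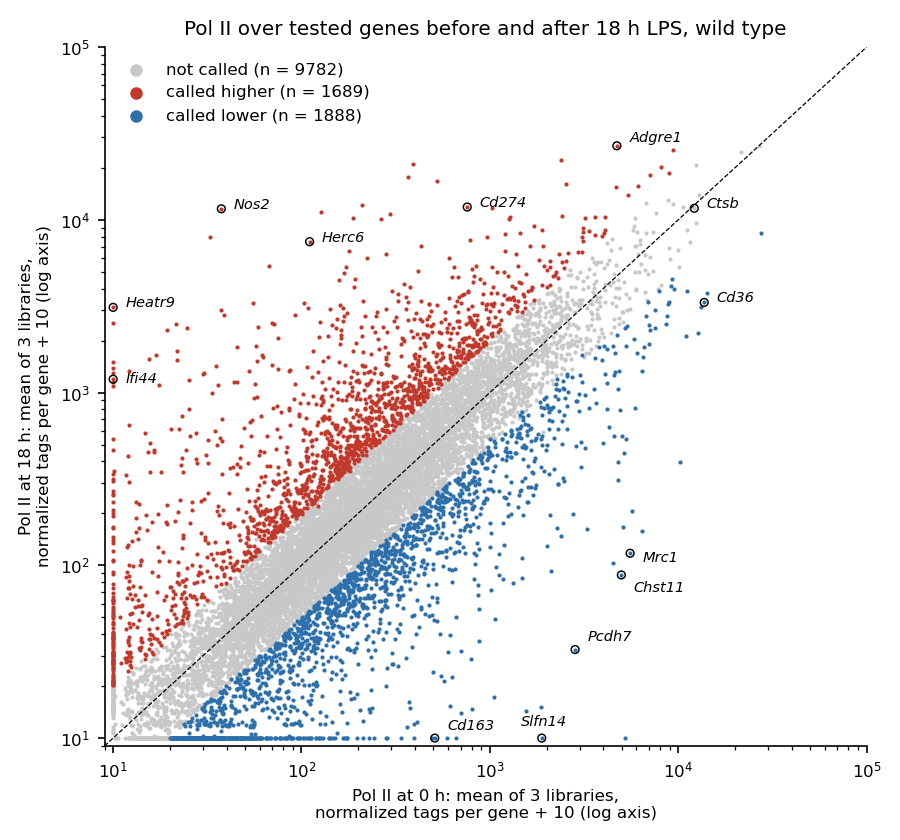
Mean Pol II at 0 h (horizontal axis) against 18 h (vertical axis) for 13359 tested genes, in normalized tags per gene plus 10 on log axes, with each point 1 gene and colours for the call. Genes that rose lie above the dashed line of equality and genes that fell below it, and the column at the left edge holds genes with no region at 0 h.

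The promoters of a few genes are shown first, because the interferon and the replication genes described below differ in them. RefSeq promoter sequences (GRCm38.p6, 250 bases before to 50 after the start) were matched by symbol for 16504 of 21897 genes. They were searched on both strands for the core of the interferon-stimulated response element (ISRE, GAAANNGAA), for an E2F motif (TTTGGCGC or TTTCCCGC), for AP-1 (TGAGTCA) and for the NF-kB consensus. Of the 1336 genes that rose and had a promoter, 169 held the ISRE core (12.7%), against 6.23% of the genes that fell, 7.33% of all tested and 8.30% of all promoters. In the list of antiviral genes 15 of 23 promoters held it, and in the list of guanylate-binding and immunity-related GTPases 9 of 10. The E2F motif was in 1.27% of the genes that rose, 3.40% of those that fell and 2.99% of all tested, and in 9 of 22 DNA replication genes. The AP-1 letters were in 5.02%, 3.54% and 3.58% of the same 3 sets, and the NF-kB consensus in 11.5%, 10.4% and 9.99%. A match is a description of the letters and not evidence of binding.

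In the following promoters of genes that rose, capitals mark matches to the ISRE core in either orientation. Ifit1 (chr19:34640639-34640938, plus strand) holds 3 matches that start 109, 103 and 84 bases before the annotated start, Ifi44 (chr3:151749861-151750160, minus strand) holds 1 that starts 3 bases before it, and Cxcl10 (chr5:92348840-92349139, minus strand) holds 1 that starts 213 bases before it. Sequences run 5′ to 3′ on the strand of the gene.
Ifit1: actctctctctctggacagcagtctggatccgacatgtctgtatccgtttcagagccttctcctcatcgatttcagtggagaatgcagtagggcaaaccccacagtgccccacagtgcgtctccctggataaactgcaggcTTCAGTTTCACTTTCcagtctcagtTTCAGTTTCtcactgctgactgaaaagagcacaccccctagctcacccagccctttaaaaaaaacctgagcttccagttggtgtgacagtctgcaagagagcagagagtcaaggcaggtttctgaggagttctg
Ifi44: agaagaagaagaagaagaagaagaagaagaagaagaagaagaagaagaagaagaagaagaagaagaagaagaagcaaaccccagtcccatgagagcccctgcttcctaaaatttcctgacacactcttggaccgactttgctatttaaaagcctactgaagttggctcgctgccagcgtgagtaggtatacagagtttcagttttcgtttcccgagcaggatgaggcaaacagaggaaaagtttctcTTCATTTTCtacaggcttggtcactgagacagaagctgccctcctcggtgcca
Cxcl10: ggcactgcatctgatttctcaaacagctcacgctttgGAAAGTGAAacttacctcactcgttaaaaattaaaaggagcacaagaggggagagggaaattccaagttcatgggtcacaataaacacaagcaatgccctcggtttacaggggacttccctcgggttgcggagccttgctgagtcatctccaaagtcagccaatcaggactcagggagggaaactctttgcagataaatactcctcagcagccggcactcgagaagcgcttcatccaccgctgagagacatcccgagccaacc

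In the promoters of 2 replication genes that fell and hold the E2F motif, capitals mark it. Other replication genes differed, as Rrm2 and Tyms, which fell, hold no match and Mcm5, which rose, holds 1. Mcm3 (chr1:20820263-20820562, minus strand) holds 2 matches past the start, at 19 and 38 bases, and Mcm6 (chr1:128359656-128359955, minus strand) holds 2 that begin 110 and 47 bases before it.
Mcm3: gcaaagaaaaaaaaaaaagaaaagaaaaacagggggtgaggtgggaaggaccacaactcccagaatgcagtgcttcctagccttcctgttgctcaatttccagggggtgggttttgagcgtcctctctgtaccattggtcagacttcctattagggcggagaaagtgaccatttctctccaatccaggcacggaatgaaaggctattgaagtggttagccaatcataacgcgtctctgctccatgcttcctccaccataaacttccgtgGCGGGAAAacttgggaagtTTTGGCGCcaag
Mcm6: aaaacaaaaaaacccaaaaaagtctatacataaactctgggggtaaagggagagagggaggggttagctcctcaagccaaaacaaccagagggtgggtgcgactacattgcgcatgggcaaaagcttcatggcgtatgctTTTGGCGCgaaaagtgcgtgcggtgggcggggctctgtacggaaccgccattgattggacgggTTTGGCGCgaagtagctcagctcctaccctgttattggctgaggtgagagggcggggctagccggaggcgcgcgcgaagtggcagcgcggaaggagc

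Among genes whose window overlaps no other gene, the one with the largest gain that was present at 0 h was Nos2, which makes inducible nitric oxide synthase. Its value was 22.1, 28.5 and 32.0 tags at 0 h and 12112, 11796 and 10786 tags at 18 h, a log2 change of 8.28 (SE 0.21, n = 3 per group, adjusted p = 4.71e-16). At 1 h the 3 libraries had 548, 498 and 594 tags, so most of the Pol II on Nos2 was gained after the first hour. The groups at the 3 times did not overlap. The deposited region over Nos2 at 18 h averaged 69.0 kb and ran on into Lgals9, whose end lies 2.7 kb away on the other strand.

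Heatr9 was listed at 0 in all 3 libraries at 0 h and held 3360, 2968 and 2975 tags at 18 h. All of that value lay in a region of 49.0 kb that also covers Taf15 and Ccl5, the gene of the chemokine RANTES, which ends 3.6 kb upstream of Heatr9 on the same strand. Ccl5 itself had 7.61, 8.87 and 0 tags at 0 h, 5017, 5453 and 5445 tags at 1 h and 1686, 1489 and 1493 tags at 18 h (log2 change 6.71, SE 0.16, adjusted p = 2.11e-16). How much of the value of Heatr9 came from Pol II that had passed Ccl5 was not tested.

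Complement component C3 had no region at 0 h in any library, 1902, 1858 and 2004 tags at 1 h and 1517, 1452 and 1488 tags at 18 h. Saa3, an acute-phase serum amyloid A gene, had none at 0 h, 210, 216 and 249 tags at 1 h and 1067, 1302 and 1052 tags at 18 h. The 2 genes differed in order, with C3 higher at 1 h than at 18 h and Saa3 lower. Bace2, an aspartyl protease, had no region at 0 or 1 h and 1420, 1017 and 800 tags at 18 h, all in a region shared with the antiviral gene Mx1, which lies 4.1 kb away on the other strand. Wnk2, a kinase, had none at 0 or 1 h and 1472, 1576 and 1104 tags at 18 h. Neither Bace2 nor Wnk2 had H3K27ac, the acetylation found at active promoters, within 2500 bp of its start in enough libraries to be tested.

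The other genes among the 12 largest gains whose window overlaps no other gene belong to interferon-induced families. Ifi44 had no region at 0 h, 29.8, 22.5 and 27 tags at 1 h and 1151, 1113 and 1289 tags at 18 h. Slfn1, of the Schlafen family, rose from 0, 6.25 and 0 tags to 1296, 1314 and 1334 tags (log2 change 6.82, SE 0.19, adjusted p = 1.2e-15). The 2 genes carried no region that reached another gene body. Oasl1, which resembles the 2′-5′-oligoadenylate synthetases, rose from 7.57, 14.8 and 12.0 tags to 2473, 2409 and 2534 tags, in a region that also covers Oasl2. Ifi208 had no region at 0 h and 959, 3245 and 3349 tags at 18 h, so replicate 1 was far below the other two. Genes of the Ifi200, Schlafen, Gbp, Oas and Trim30 families resemble each other in sequence, and how reads that map to several members were treated is not given in the sources used here, so the values of single members are uncertain.

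Extended regions were common among the genes that rose. The region that gave most of the 18 h value had a median length of 14.6 kb in these genes and 5.1 kb in all tested. In 45.1% of them more than 50% of the 18 h value lay in regions that also overlap another gene, and this share was 45.1% in all tested genes too. Among the named genes that rose, this was so for the whole 18 h value of C3, Saa3, Gbp4, Ifit1, Eif2ak2, Stat2, Irf7, Il1a, Il23a, Cxcl10, Tnip1, Nfkbib, Cd274, Nlrc5, Tap2, Ctss, Hk3, Nr1h3, Cebpb and Trim30d, beside those described with their neighbours. Of the genes that fell, 33.3% had more than 50% of the 0 h value in such regions, against 43.5% of all tested. Among those named here were Egr2, Lyz2, Ccl6 and Mef2a, with the whole 0 h value. The share was 93.9% for Itgax, 77.8% for Idh2 and 75.4% for Mcm6. Of the genes that rose, 144 (8.53%) began within 10 kb behind the end of another gene on the same strand that rose, against 2.74% of all tested. Of the genes that fell, 109 (5.77%) began behind a gene that fell, against 2.73%.

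Interferon-stimulated genes rose throughout the antiviral list. Of its 32 genes 30 were tested and all 30 rose, against 12.6% of all tested genes. The median log2 change of the list was 3.64, with a range of 1.46 to 7.94. The lists of genes were written with earlier results of these data known, so their counts describe the lists. Herc6, an ISG15 ligase, rose from 77.2, 116 and 108 tags to 7468, 7244 and 7658 tags (log2 change 6.10, SE 0.11, adjusted p = 2.88e-18). Ifit1, which binds foreign RNA, rose from 46.7, 45.1 and 43.3 tags to 3346, 3068 and 3455 tags (log2 change 5.90). At the lower end Eif2ak2, the double-stranded RNA-activated kinase PKR, rose from 408, 502 and 534 tags to 1314, 1386 and 1312 tags (log2 change 1.46, SE 0.10, adjusted p = 2.82e-10). Within 500 bp of the start alone its change was 0.60 and was not called.

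Guanylate-binding proteins and immunity-related GTPases attack the vacuoles of intracellular microbes. Of 19 such genes 17 were tested and all 17 rose, against 12.6% of all tested genes, with a median log2 change of 4.67. Gbp5 rose from 47.6, 64.6 and 60.0 tags to 5430, 5340 and 5456 tags (log2 change 6.34, SE 0.15, adjusted p = 1.95e-16) and had held 7443, 7352 and 7669 tags at 1 h. Gbp4 was at 0 in all 0 h libraries and at 0, 0 and 18.6 tags at 1 h, and it held 1302, 1273 and 1277 tags at 18 h. Gbp5 thus had its highest values at 1 h and Gbp4 at 18 h. The summed value of the antiviral list was 7289 to 8665 tags at 0 h, 70430 to 72050 tags at 1 h and 141400 to 145200 tags at 18 h. That of the GTPases was 2113 to 2443, 21160 to 22140 and 35520 to 36420 tags. Both sums were thus higher at 18 h than at 1 h in every library.

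Of 14 tested interferon regulatory and STAT factors, 7 rose and 1 fell, with a median log2 change of 1.11. Over all tested genes 12.6% rose and 14.1% fell, so the share that fell was no higher than that. Stat2, which carries interferon signals to the nucleus, rose from 530, 660 and 596 tags to 3551, 3425 and 3603 tags (log2 change 2.55, SE 0.09, adjusted p = 2.71e-14). Irf7, a factor that amplifies the interferon response, rose by 2.46. Irf4, which acts in alternative activation, fell from 36.4, 51.7 and 56.1 tags to 0 in all 3 libraries, although the fall was not called with a pseudocount of 50. Irf3, which is activated by phosphorylation, had 209, 254 and 285 tags at 0 h and 264, 236 and 254 tags at 18 h, so its groups overlapped.

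Cytokine genes were mixed at 18 h. Of 18 tested, 8 rose and none fell, against 12.6% and 14.1% of all tested genes, with a median log2 change of 0.77. Il6 was at 0 in every 0 h library, at 376, 397 and 390 tags at 1 h and at 104, 122 and 107 tags at 18 h. Il1a rose from 19.0, 36.1 and 18.8 tags to 575, 608 and 582 tags (log2 change 4.15, SE 0.13, adjusted p = 1.36e-14), after 8017, 8176 and 8662 tags at 1 h. Il23a, which encodes the p19 subunit of IL-23, had 245, 138 and 228 tags at 1 h and 551, 531 and 559 tags at 18 h, all of the latter in a region of 34.8 kb that also covers Stat2, which rose, so that how much of it belongs to Il23a was not tested. Il12b, the shared p40 subunit, had 4096, 4226 and 4314 tags at 1 h and none at 18 h, and its 0 h values were at most 0.498 tags. The summed cytokine list held 55630 to 57930 tags at 1 h and 12270 to 12570 at 18 h, against 4387 to 4816 at 0 h.

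Of 12 tested chemokine genes, 2 rose and 4 fell, against 12.6% and 14.1% of all tested genes, so the gains were near that share. Cxcl10, which attracts T cells, rose from 48.3, 51.2 and 55.9 tags to 1750, 1580 and 1608 tags (log2 change 4.74, SE 0.27, adjusted p = 3.43e-11), and Ccl5 is given above. Cxcl2, a neutrophil attractant, had 265, 276 and 260 tags at 0 h, 2978, 3240 and 3385 tags at 1 h and 64.1, 58.1 and 59.6 tags at 18 h (log2 change against 0 h -1.97, SE 0.11, adjusted p = 2.03e-11). It lay below its starting level in every library at 18 h. Ccl6 fell from 2321, 2442 and 2352 tags to 138, 128 and 146 tags (log2 change -4.02), although it had held 4647 to 4931 tags at 1 h. Ccl3 had 696, 692 and 675 tags at 0 h and 670, 661 and 667 tags at 18 h, a log2 change of -0.05 (adjusted p = 0.686). The list as a whole held 44770 to 50290 tags at 1 h and 7856 to 8217 at 18 h, against 9536 to 10030 at 0 h.

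**Figure D2:**
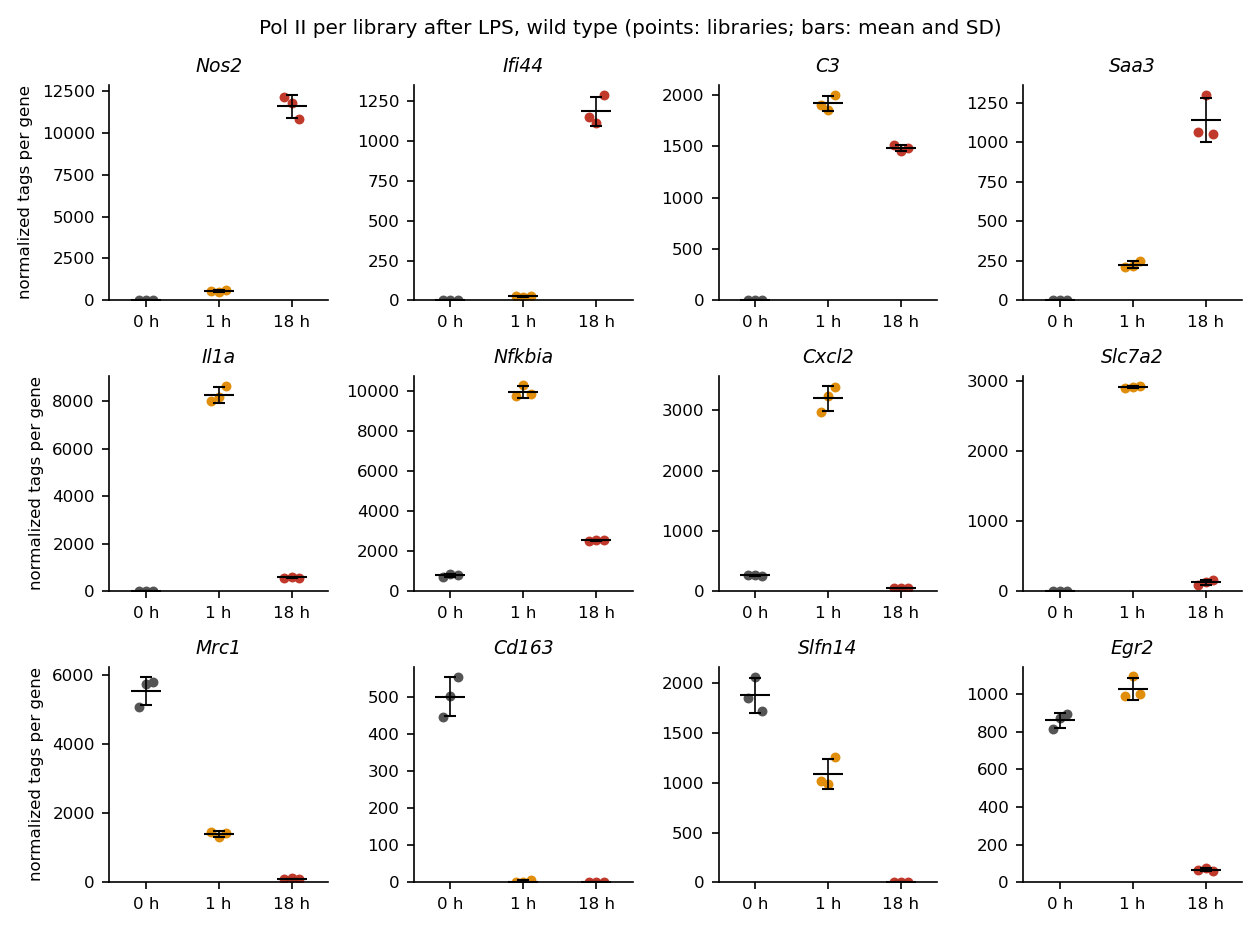
Pol II of 12 genes in each wild-type library at 0, 1 and 18 h of LPS, in normalized tags per gene, where points are libraries and bars give the mean and SD of 3 libraries. Nos2, Ifi44 and Saa3 were highest at 18 h, Il1a, Nfkbia, Cxcl2 and Slc7a2 at 1 h, and Mrc1, Cd163 and Slfn14 at 0 h.

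Among NF-kB subunits and inhibitors 4 of 14 rose and none fell, against 12.6% and 14.1% of all tested genes. With median centring, with quantile normalization and with the input subtracted 1 fell. Nfkbia, the inhibitor IkB-alpha, rose from 725, 848 and 810 tags to 2509, 2562 and 2567 tags (log2 change 1.67, SE 0.07, adjusted p = 2.14e-13), and its 1 h values were 9736, 10290 and 9841 tags. Tnip1, Nfkbib and Bcl3 rose by 2.33, 2.18 and 1.62. Nfkb1, the p105 subunit, had 1168, 1508 and 1542 tags at 0 h, 13575 to 13912 tags at 1 h and 1595, 1539 and 1501 tags at 18 h, so its 18 h values overlapped those at 0 h.

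Of 16 feedback inhibitors, 7 rose and 5 fell, against 12.6% and 14.1% of all tested genes. Socs3, which blocks signalling by the IL-6 receptor, rose from 16.3, 25.4 and 28.6 tags to 843, 1071 and 1040 tags (log2 change 4.91, SE 0.13, adjusted p = 6.43e-16). Cd274, the checkpoint ligand PD-L1, rose from 669, 802 and 773 tags to 11576, 12028 and 11902 tags (log2 change 3.97, SE 0.07, adjusted p = 1.74e-18), and Pdcd1lg2, the neighbouring PD-L2 gene, rose by 3.75. Dusp5, a nuclear ERK phosphatase, fell from 768, 908 and 903 tags to 55.8, 65.6 and 50.2 tags (log2 change -3.70). Within 500 bp of the start alone Dusp5 changed by -0.48 and was not called.

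Enzymes of arginine, itaconate and prostaglandin metabolism rose in 9 of 16 cases and fell in 1, against 12.6% and 14.1% of all tested genes. The median log2 change of the list was 2.21. Acod1, which makes itaconate, rose from 121, 125 and 106 tags to 10650, 6880 and 15737 tags (log2 change 6.37, SE 0.28, adjusted p = 8.87e-13), with a wide spread among the 18 h libraries. Ptgs2, the inducible cyclooxygenase, had 1304, 1355 and 1368 tags at 1 h and 1266, 1254 and 1321 tags at 18 h, against 9.78 to 28.8 at 0 h. Ass1, which regenerates arginine, rose from 6.23, 0 and 0 tags to 283, 288 and 310 tags (log2 change 4.69). Slc7a2, an arginine transporter, had 2905 to 2932 tags at 1 h and 93.8, 130 and 163 tags at 18 h.

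Genes of antigen presentation are given by class. Of 20 genes of MHC class I and antigen processing 17 rose and none fell, with a median log2 change of 1.67. Nlrc5, which switches on class I genes, rose from 304, 431 and 336 tags to 3383, 3322 and 3304 tags (log2 change 3.21, SE 0.10, adjusted p = 1.01e-14). Tap2, a subunit of the peptide transporter, rose by 2.83 and H2-Q4 by 2.54. Of 11 class II genes 2 rose, a share near the 12.6% of all tested genes, and none fell, with a median of 0.18. With the input subtracted 2 rose, 3 fell and the median was -0.78, and with a common density floor 3 rose and it was 0.52. The difference between the classes was not tested. The 2 were H2-Oa, which rose from 5.81, 0 and 0 tags to 67.0, 61.5 and 62.5 tags (log2 change 2.66), and Ctss, the protease cathepsin S, whose log2 change of 1.06 fell under 1 with median centring, with quantile normalization and without replicate 1 of 0 h. Cd74, the invariant chain, had 381, 394 and 429 tags at 0 h and 377, 365 and 362 tags at 18 h (log2 change -0.12, adjusted p = 0.152).

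Of 23 Toll-like receptors and adaptors 4 rose and 2 fell, near the 12.6% and 14.1% of all tested genes, and with the input subtracted 3 rose and 3 fell. Tlr3, a receptor for double-stranded RNA, rose from 72.4, 62.0 and 80.9 tags to 329, 341 and 334 tags (log2 change 2.08, SE 0.11, adjusted p = 2.3e-11). Members of the LPS receptor complex differed, as Ly96 (MD-2) rose from 347, 394 and 367 tags to 995, 740 and 964 tags (log2 change 1.25, adjusted p = 4.99e-09) and Cd14 fell from 653, 722 and 777 tags to 180, 119 and 149 tags (log2 change -2.20, adjusted p = 6.71e-12). Tlr4 itself, which the naming rule did not choose and whose values had been seen, had 1622, 1982 and 1918 tags at 0 h and 1018, 988 and 999 tags at 18 h, a log2 change of -0.87 (adjusted p = 3.19e-09) that did not pass the fold limit, but passed it with quantile normalization (-1.34) and with the input subtracted (-1.47). Tlr7 had 1409, 1559 and 1508 tags at 0 h and 1496, 1472 and 1514 tags at 18 h, so its groups overlapped.

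In glycolysis 8 of 16 genes rose and none fell, against 12.6% and 14.1% of all tested genes, with a median log2 change of 0.85. With quantile normalization 5 rose. Pfkfb3, which makes the activator of phosphofructokinase, rose from 552, 648 and 653 tags to 4687, 4609 and 4573 tags (log2 change 2.89, SE 0.07, adjusted p = 1.09e-16). Hk1 and Hk3, hexokinases, rose by 1.86 and 1.48. Of 27 genes of the citric acid cycle and the respiratory chain none rose and 3 fell, a share no higher than the 14.1% of all tested genes, with a median of 0.04 that was -0.03 with median centring. Idh2, a mitochondrial isocitrate dehydrogenase, fell from 711, 857 and 773 tags to 208, 212 and 236 tags (log2 change -1.79, SE 0.11, adjusted p = 1.07e-10). At 1 h it had 11.4 to 18.6 tags.

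Cholesterol genes gave no common direction. Of 21 sterol synthesis genes 1 rose and 3 fell, and of 13 LXR target and efflux genes 2 rose and 2 fell, while 12.6% of all tested genes rose and 14.1% fell. Nr1h3, the gene of LXR alpha, rose from 631, 790 and 696 tags to 1752, 1762 and 1789 tags (log2 change 1.32, SE 0.08, adjusted p = 9.95e-11). Pparg, a nuclear receptor of lipid uptake, fell from 2481, 2783 and 2983 tags to 163, 184 and 220 tags (log2 change -3.80, SE 0.11, adjusted p = 2.66e-15), and it had 18.6 to 21.7 tags at 1 h. Lpl, a lipase, fell from 11839, 14004 and 13882 tags to 3090, 3087 and 3147 tags (log2 change -2.08). Of 26 lysosomal genes 5 rose and 3 fell, against the same 12.6% and 14.1%, and with quantile normalization 2 rose and 4 fell and with median centring 3 did each. Ctsl fell from 2901, 2953 and 3057 tags to 766, 758 and 805 tags, while Ctsb had 11267 to 12601 tags at 0 h and 11312 to 11877 tags at 18 h.

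**Figure D3:**
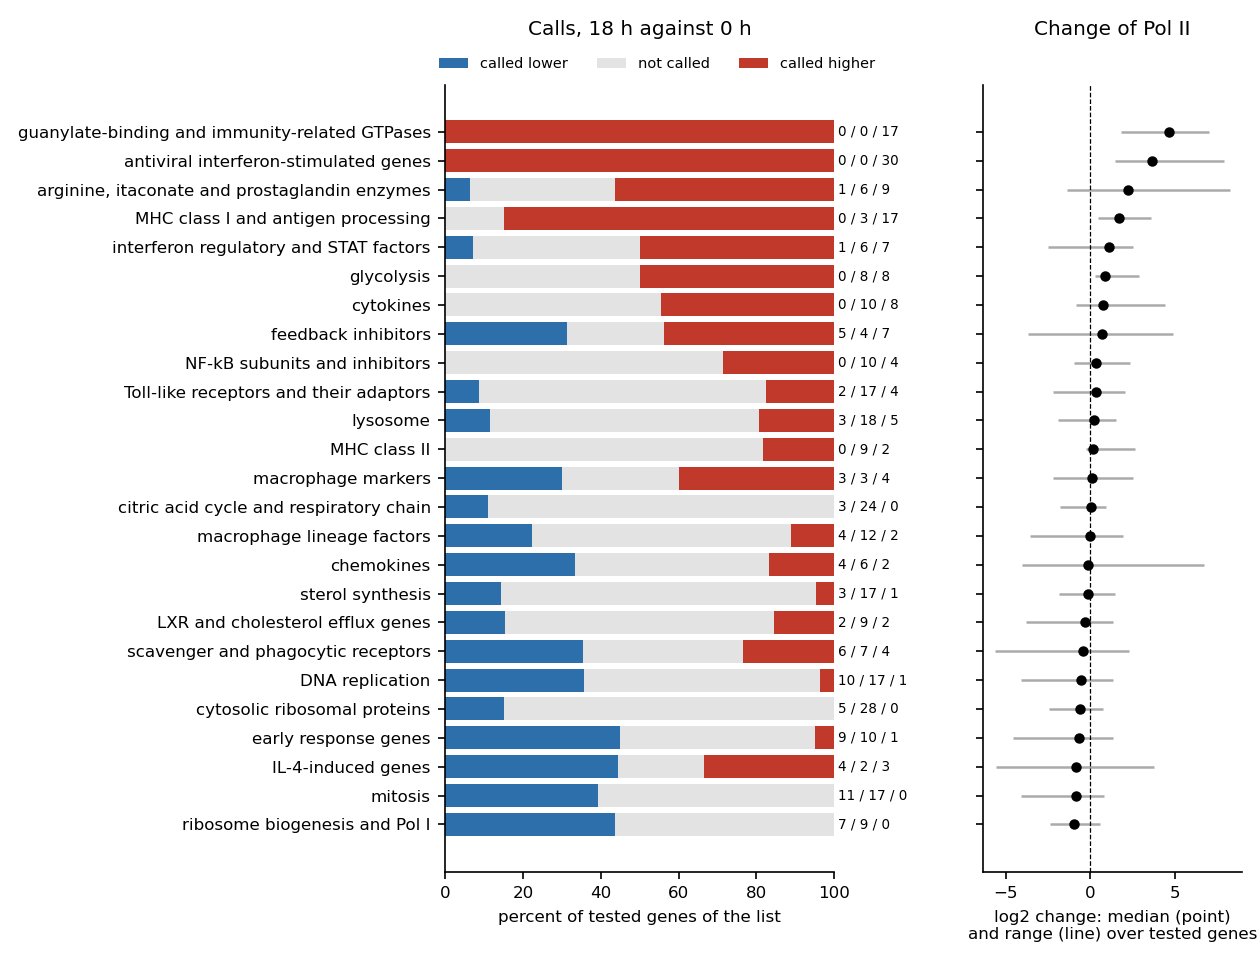
Share of the tested genes of each list that fell, were not called or rose at 18 h, with those counts in this order at the right of the bars (left), and the median and range of the log2 change (right). The lists with at least 9 tested genes are ordered by median, from 4.67 for the GTPases to -0.97 for ribosome biogenesis.

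Of single genes with large losses, Mrc1, the mannose receptor, fell from 5072, 5749 and 5808 tags to 106, 114 and 103 tags (log2 change -5.56, SE 0.07, adjusted p = 3.19e-20), with 1312 to 1449 tags at 1 h. Cd163, the haemoglobin scavenger receptor, fell from 446, 502 and 552 tags to 0 in all 3 libraries, and at 1 h it already had 0, 0 and 6.27 tags. Vsig4, a complement receptor, fell from 559, 683 and 508 tags to 0. These 3 genes had no overlap between the groups. Within 500 bp of its start alone Cd163 changed by -0.53 and was not called.

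Slfn14 fell from 1848, 2062 and 1718 tags to 0 in every 18 h library. It had 985 to 1256 tags at 1 h, and 7 other Schlafen genes next to it on the chromosome rose. Mmp9, the gelatinase, fell from 791, 795 and 798 tags to 0, 6.55 and 7.44 tags (log2 change -5.82, SE 0.20, adjusted p = 2.57e-14), and Dcstamp, which acts in the fusion of macrophages, fell from 628, 662 and 654 tags to 0. The 0 h region of Dcstamp also covers Dpys on the other strand. Pcdh7, a protocadherin, had 2466, 2977 and 3029 tags at 0 h and still 3260 to 3574 tags at 1 h, and it fell to 13.3, 29.6 and 24.7 tags at 18 h (log2 change -6.47, SE 0.14). Rasgrp3, an activator of Ras, was in contrast at 0 in all 1 h libraries and at 6.19, 6.83 and 0 tags at 18 h, from 1382 to 1645 tags at 0 h. Fam78b, Chst11, Hdac9 and Bex6 fell by 6.96, 5.82, 5.68 and 5.61. The largest fall over all genes tested was that of Mmp12, macrophage elastase, at -9.02, which was left out of the naming rule because its window overlaps another gene and is named here after its value was seen.

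Of 17 tested scavenger and phagocytic receptors 4 rose and 6 fell, against 12.6% and 14.1% of all tested genes. Itgax, the integrin CD11c, fell from 564, 627 and 626 tags to 5.30, 7.31 and 3.23 tags (log2 change -5.34, SE 0.14, adjusted p = 7.59e-16), and Cd36, which takes up oxidized lipids, fell by 2.04. Fcgr2b, the inhibitory Fc receptor, rose from 238, 258 and 266 tags to 1292, 1272 and 1286 tags (log2 change 2.29, SE 0.09, adjusted p = 9.19e-14). Of 9 tested IL-4-induced genes 3 rose and 4 fell, with a median of -0.82 that was 0.21 over the 6 genes found in every library compared and -3.11 with a pseudocount of 1, where 6 fell.

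Of 18 factors of the macrophage lineage 2 rose and 4 fell, while 12.6% of all tested genes rose and 14.1% fell. Cebpb rose from 247, 310 and 306 tags to 1199, 1093 and 1113 tags (log2 change 1.95, SE 0.08, adjusted p = 5.61e-13) and Batf rose by 1.78. Mef2c fell from 4292, 4982 and 5037 tags to 377, 393 and 391.6 tags (log2 change -3.59, SE 0.10, adjusted p = 2.6e-15). Runx1 and Mef2a fell by 1.50 and 1.49. Mitf had 9307 to 11283 tags at 0 h and 11698 to 11872 tags at 18 h, a log2 change of 0.17. Among the markers of macrophages Adgre1, the F4/80 antigen, rose from 4132, 4900 and 5102 tags to 26688, 26836 and 26868 tags (log2 change 2.51), while Lyz2, the gene of lysozyme, fell from 4584, 4690 and 4560 tags to 1156, 1342 and 1430 tags (log2 change -1.81).

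Of 20 tested early response genes 1 rose and 9 fell, against 12.6% and 14.1% of all tested genes, so the share that rose was no higher than that. The median log2 change of the list was -0.68, and 8 of the 20 had log2 changes above 0. The summed value of the list was higher at 18 h, with 20230 to 21100 tags, than at 0 h, with 15770 to 17350. Egr1 fell from 781, 794 and 880 tags to 70.9, 76.0 and 73.5 tags (log2 change -3.31, SE 0.12, adjusted p = 9.45e-14). Egr2 had 814, 873 and 893 tags at 0 h, 988, 1094 and 998 tags at 1 h and 63.6, 77.3 and 61.4 tags at 18 h (log2 change -3.50). Fosl2 fell by 2.75, although it changed by -0.40 and was not called within 500 bp of the start. Ier5 and Fosb had log2 changes of 0.02 and 0.17, and their groups overlapped.

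Genes of cell division and growth fell in part of their members. Of 28 DNA replication genes 10 fell and 1 rose, of 28 mitosis genes 11 fell and none rose, and of 16 genes of ribosome biogenesis 7 fell and none rose. Over all tested genes 14.1% fell and 12.6% rose. The median log2 changes of these lists were -0.53, -0.83 and -0.97. For mitosis the median was -1.46 with the input subtracted, where 17 of 23 fell, and -0.40 with a pseudocount of 50, where 7 of 28 fell. For DNA replication it was -0.85 with the input subtracted. Rrm2, a subunit of ribonucleotide reductase, fell from 188, 208 and 212 tags to 0, 0 and 7.82 tags (log2 change -4.13, SE 0.21, adjusted p = 5.36e-12), and Tyms, thymidylate synthase, from 148, 183 and 179 tags to 9.10, 10.1 and 6.48 tags. Mcm3, a subunit of the replicative helicase, fell from 71.7, 90.8 and 73.0 tags to 0 in all 3 libraries. Top2a, the mitotic topoisomerase, fell by 4.11 and Cdk1, the mitotic kinase, by 2.31. Nop58, a core protein of small nucleolar particles, fell from 538, 548 and 642 tags to 90.6, 94.1 and 120 tags (log2 change -2.40, SE 0.14). Of 33 cytosolic ribosomal protein genes 5 fell, a share near the 14.1% of all tested genes, and none rose. Their median was -0.60, and 13 fell with quantile normalization, 2 with a pseudocount of 50 and 1 of 20 among windows that overlap no other gene.

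Mcm5 was the 1 replication gene that rose, and it did so at 1 end only. Its value went from 165, 188 and 124 tags to 384, 415 and 429 tags (log2 change 1.33, SE 0.21, adjusted p = 2.12e-05). With a pseudocount of 1 this rise was not called. All of the 18 h value lay in a region of 28.8 kb that also covers Hmox1, the gene of heme oxygenase 1. Within 500 bp of the start Mcm5 held 39.6 ± 4.85 tags at 0 h and 409 ± 22.9 tags at 18 h (SD, n = 3), and over the body 120 ± 29.4 tags at 0 h and none at 18 h. The tags shared out to its body thus fell while those shared out to its start rose. How much of the start value at 18 h belongs to Mcm5 and how much to Hmox1, which also rose, was not tested. H3K27ac at the start of Mcm5 fell from 234, 266 and 216 tags to 60.2, 70.2 and 67.7 tags.

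To separate the start from the body, Pol II was counted within 500 bp of the start and from 500 bp past the start to 500 bp past the end. The body-to-start ratio rose in 1208 genes (11.6% of 10458 tested) and fell in 1472 (14.1%). Among genes whose total rose, 833 of 1349 had a higher ratio and 18 a lower one. Among genes whose total fell, 33 of 1322 had a higher ratio and 828 a lower one. Total, start and body share the same tags, so these counts describe where along the gene the tags were gained or lost. A single region that spans start and body gives both the same density, and it cannot show a difference.

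In the lists of growth genes more members fell in the body than at the start. In ribosome biogenesis 8 of 16 genes fell in the body and none at the start, with median log2 changes of -1.08 and -0.08. In mitosis 16 of 26 fell in the body and 4 at the start (medians -1.33 and -0.02), and in DNA replication 11 of 28 and 3 of 28 (medians -0.65 and -0.03). Over all 10851 genes with both values, 1725 fell in the body (15.9%) and 492 at the start (4.53%), with medians of 0 and 0.05. Nop58 held 43.3 ± 14.3 tags at the start at 0 h and 75.9 ± 14.4 at 18 h, and in the body 533 ± 61.2 and 25.8 ± 10.9 (SD, n = 3). For Ccnb2, a cyclin of mitosis, the start held 21.9 ± 2.72 and 25.1 ± 2.48 tags and the body 398 ± 98.4 and 20.8 ± 17.1 tags. Of its 0 h value 99.0% lay in regions that also cover Myo1e or Rnf111, with a main region of 208.0 kb. At 18 h the whole value lay in regions shared with Rnf111. How much of either value belongs to Ccnb2 was not tested. Pparg and Runx1 had the same shape as Nop58, with log2 changes of 0.17 and 0.79 at the start and -3.99 and -1.53 in the body. The main regions of Pparg and Runx1 went from 119.0 and 228.9 kb at 0 h to 1.8 and 12.6 kb at 18 h. That of Nop58 went from 13.3 to 1.9 kb. How much of the difference between start and body came from these lengths was not tested. Among the genes named here that were called over the whole window, Pparg, Runx1, Nop58, Ccnb2, Mef2a and Lrrc8c had a change of the other sign within 500 bp of the start, which was not called, and 19 more had a change of the same sign that was not called. Besides Eif2ak2, Dusp5, Fosl2 and Cd163, the 19 were Pfkfb3, Nlrc5, Nr1h3, Tlr3, Ly96, Bcl3, Nfkbib, Slco3a1, Jak2, Ermp1 and Taf15, with log2 changes of 0.10 to 0.95 at the start, and Chst11, Dcbld2, Mcm6 and Tyms, with -0.96 to -0.055.

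The gains, as tags were shared out, were also larger in the body. In the antiviral list 29 of 29 genes rose in the body and 23 at the start (medians 4.36 and 1.93), and in the GTPase list 16 and 15 of 17 (medians 4.78 and 1.93). Over all genes with both values 1559 rose in the body (14.4%) and 471 at the start (4.34%). Herc6 rose from 31.5 ± 2.85 to 88.1 ± 2.45 tags at the start and from 68.9 ± 17.6 to 7369 ± 205 tags in the body (SD, n = 3). The largest gains in the ratio were those of Slco3a1, an organic anion transporter, at 7.00 (SE 0.20, adjusted p = 8.44e-12), and of Lrrc8c, a subunit of volume-regulated anion channels, at 6.22. Slco3a1 had no tags in the body at 0 h and 2325 ± 326 at 18 h, while its start went from 14.7 ± 4.36 to 34.5 ± 4.62. Lrrc8c had lower values at the start, 49.2 ± 6.91 tags at 0 h and 19.7 ± 0.44 at 18 h. The main regions of Herc6, Slco3a1 and Lrrc8c went from 2.4, 1.6 and 1.5 kb at 0 h to 101.0, 17.9 and 32.2 kb at 18 h. The largest falls of the ratio besides Mcm5 were those of Chst11 and Fam78b, both -6.09. Their main regions went from 218.9 and 40.4 kb to 1.4 and 0.9 kb. How much of these differences between start and body came from the lengths of regions was not tested. In contrast Lpl lost about the same at both ends, with log2 changes of -1.99 and -2.08.

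**Figure D4:**
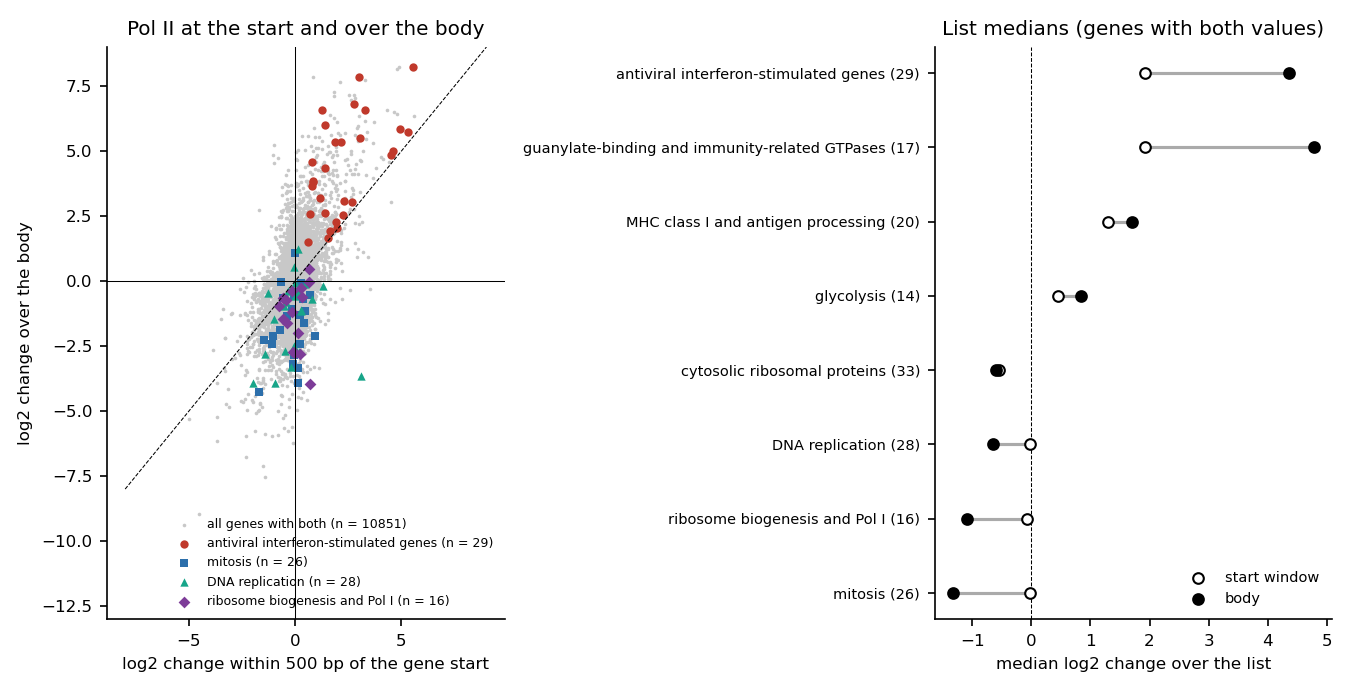
Log2 change of Pol II at 18 h within 500 bp of the gene start (horizontal axis) against that over the body (vertical axis) for 10851 genes, with 4 lists coloured (left), and the median of each measure in 8 lists (right). The medians of mitosis and ribosome biogenesis lie at -1.33 and -1.08 in the body and at -0.02 and -0.08 at the start.

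Some genes that were called in the same direction lay side by side. Runs of at least 5 neighbouring tested genes called in the same direction numbered 26 for gains and 15 for losses, and the genes named from them here were chosen after their values were seen. The longest were 2 stretches of mostly histone genes on chromosome 13, of 17 and 12 genes that fell, with median log2 changes of -1.85 and -1.18. Replication-dependent histone genes are used in S phase, and their near-identical copies make single members uncertain. Of the gains, the longest run was that of 11 genes from Irgm1 to Olfr1396 on chromosome 11 (chr11:48861968-49135387, mm10), with a median of 2.51. It was followed by 10 Trim genes on chromosome 7 (median 2.97) and 8 genes of the Ms4a cluster on chromosome 19 (median 3.73). Runs of 7 held the Schlafen genes, the Phf11 genes, the Oas genes and the stretch from Jak2 to Ermp1 with Cd274 in it. Among the losses, 7 genes of the S100a cluster on chromosome 3 fell with a median of -2.86 and 6 genes of the Mmp cluster on chromosome 9 with a median of -2.57. Olfactory receptor and other genes inside such runs share regions with their neighbours, and their own transcription was not tested.

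The list of genes with the densest Pol II changed as well, here given per kb of gene window for genes of at least 2 kb and named after their values were seen. At 0 h the top 4 were the ferritin gene Fth1 with 1112 tags per kb, Actb with 1096, Rgs1 with 1076 and the osteopontin gene Spp1 with 924. At 18 h Rsad2, the antiviral enzyme viperin, led with 1430 tags per kb and had held 25.8 at 0 h, ahead of Fth1 with 1145 and Prdx1 with 1120. Spp1 was at 21.2 tags per kb at 18 h, a log2 change of -5.35. Of the 15 densest genes at each time 4 were in both sets.

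H3K27ac was measured in other libraries of the same groups, which may come from the same cultures and hold 15.0 to 31.1 M tags each. Within 2500 bp of the start it rose at 747 genes (6.33% of 11803 tested) and fell at 1024 (8.68%). Of the 1416 genes that gained Pol II and were tested for both, H3K27ac rose at 524 (37.0%) and fell at 15. Of the 1466 genes that lost Pol II it rose at 6 and fell at 598 (40.8%). The medians were 0.76 and -0.85, against -0.02 for genes without a call for Pol II. Across all 11388 genes the log2 changes of the 2 measures had a Pearson correlation of 0.73, given as a description since genes are not independent replicates and share base composition and length.

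Nos2 had no H3K27ac at its start at 0 h and 598, 577 and 575 tags at 18 h, and at Cxcl10 the values went from 23.6, 16.4 and 22 to 785, 772 and 721 tags. At Mrc1 H3K27ac fell from 500, 361 and 452 to 193, 146 and 202 tags (log2 change -1.23, SE 0.22, adjusted p = 0.000253). Other genes were called for Pol II and not for H3K27ac, although their H3K27ac values did not overlap between the groups. Pfkfb3, with a Pol II change of 2.89, had 275 to 286 tags of H3K27ac at 0 h and 232 to 257 at 18 h (log2 change -0.18, adjusted p = 0.131). Egr1, with a Pol II change of -3.31, had 219 to 242 tags at 0 h and 301 to 325 at 18 h, a log2 change of 0.40 that was not called. The Pparg start had 168 to 191 tags at 0 h and 121 to 147 at 18 h, a log2 change of -0.36 that was not called.

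The Nur77-KO libraries gave the same comparison in cells that share no library with the wild type. Nr4a1 itself had 189, 188 and 208 tags in wild-type cells at 0 h, then 25.5, 23 and 30.4 tags after 1 h, and 7.46, 5.98 and 0 tags after 18 h (log2 change -3.86, SE 0.17, adjusted p = 7.77e-13). In the KO it had 87.8, 76.1 and 70.2 tags at 0 h and none at 18 h, so its locus still carried Pol II in the KO at 0 h, at a lower level than in each wild-type library. Over all genes, 1702 rose in the KO (12.7% of 13417 tested) and 2429 fell (18.1%), with a median change of -0.18. With the input subtracted the order turned, as 2780 rose and 1805 fell in the KO. That count and the interaction with the input subtracted rest on a single KO input at 18 h that stood apart, with 27554 regions holding 6.18% of its tags, against 108461 regions and 15.6% in the KO input at 0 h. Of 1679 genes that rose in wild type and were tested in both, 1364 rose in the KO, which is 81.2% of the wild-type list and 81.8% of the KO list. Of 1871 that fell, 1626 fell in the KO, which is 86.9% of the wild-type list and 67.3% of the KO list. Only 4 genes were called in opposite directions.

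The difference between the genotypes was tested as an interaction. The change was more positive in the KO for 249 genes (1.84% of 13566) and more negative for 256 (1.89%). Among the genes that rose in wild type 101 had a more positive and 48 a more negative change in the KO. Of the 17 tested GTPases 8 were more positive in the KO and none more negative, and of the 20 class I genes 1 was. Gbp5 rose by 6.34 in wild type and by 8.38 in the KO (difference 2.04, adjusted p = 5.86e-06), and Il6 by 3.59 and 5.44 (difference 1.85, adjusted p = 1.04e-07). Fcgr2b rose by 2.29 in wild type and changed by 0.01 in the KO (difference -2.29, adjusted p = 1.49e-09). The split between the 2 directions depended on the processing, since 69.7% of the interaction calls were positive with median centring and 62.5% with quantile normalization, against 49.3% as given here. With the input subtracted 2419 were positive and 145 negative (94.3% positive), and with the adjusted p alone 32.9% were positive.

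**Figure D5:**
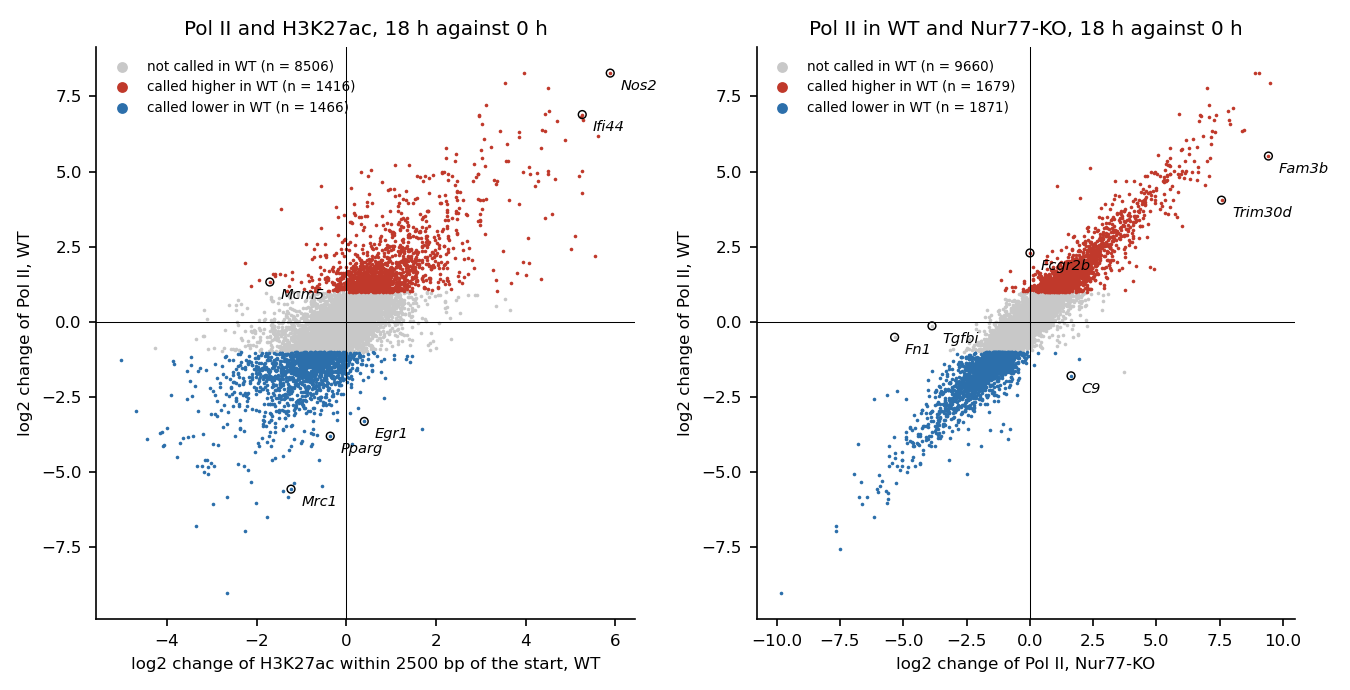
Log2 change of Pol II in wild type at 18 h (vertical axes) against that of H3K27ac at the gene start in wild type (left) and against that of Pol II in the Nur77-KO (right), with 1 point per gene coloured by the wild-type call. Genes that rose in wild type lie mostly to the right of 0 in both panels and genes that fell mostly to the left.

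Markers of other cells carried little Pol II at either time. Of 6 B cell markers 2 were tested and neither was called, with Ebf1 and Pax5 at 0 in all 6 libraries and a summed level of 100 to 159 tags at 0 h and 106 to 121 at 18 h. Of 8 T and NK cell markers 2 were tested and neither was called, with Cd3e, Cd3g, Cd8a, Klrb1c and Ncr1 at 0 and sums of 120 to 128 and 114 to 121 tags. Of 10 neutrophil and granule markers 5 were tested and 1 fell, a call lost with a pseudocount of 50, with quantile normalization, in the body alone and without replicate 1 or 2 of 18 h, with Elane, Ly6g, Mpo and S100a9 at 0 and sums of 57.8 to 79.8 and 37.3 to 49.8 tags. Of 5 dendritic cell markers 3 were tested and Flt3 fell, from 12.4 to 19.8 tags at 0 h to 0, and was not called with a pseudocount of 50 or after quantile normalization, while Ccr7 and Siglech were at 0 throughout and the sum was 258 to 337 and 381 to 461 tags. Of the 6 erythroid markers none was called, and of the 8 fibroblast markers Pdgfrb fell from 30.3, 53.0 and 60.4 to 17.8, 8.11 and 14.1 tags, a call lost with a pseudocount of 1 or 50. The part of such cells in the changes above was not tested.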

How the data were processed

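Chromatin of wild-type and Nur77-KO bone marrow-derived macrophages was precipitated with antibodies to Pol II or H3K27ac. Reads were trimmed (Skewer) and aligned to mm10 (HISAT2 2.1.0) by the authors, who then removed duplicates and called broad regions per library with HOMER (window 500 bp, stitching 1000 bp, Poisson p 0.001, no input). The deposited values are a signal, tags per 10 M per region, in steps of 0.5 tag, so no count test was made and precision beyond 3 libraries a group cannot be given.

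Signal was shared out over 21897 GENCODE genes (54 with a repeated symbol left out, 7393 windows overlapping another gene) and 10 was added before log2. Genes above 0 in 2 libraries of a group were tested with limma 3.58.1 (trend, Benjamini-Hochberg, R 4.3.3) over all groups of the antibody. The fit was tested on simulated data. H3K27ac was taken within 2500 bp of the start and the ratio only in genes over 2000 bp.

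Named genes were the 12 largest changes each way without window overlap, up to 5 called and 2 least changed per list, 3 each way for the interaction and the ratio, and Nr4a1. Members and lists were chosen with earlier results of these data known. Alternatives were other pseudocounts, filters, scalings, windows, input subtraction and leaving out each library. Input libraries served only there. A few genes are not reported here.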

Additional observations from a re-analysis of the deposited data

Results flagged for a closer look

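The change of Pol II from 0 to 18 h differed between wild-type and Nur77-KO cells, by a limma interaction test, for 249 genes that were more positive and 256 that were more negative in the KO. The genes with the largest differences whose window overlaps no other gene are given here with their values, and no explanation of them was tested. For Fn1, fibronectin, the KO change minus the wild-type change was -4.83, and for Tgfbi, a secreted matrix protein, it was -3.73. Trim12a had a difference of -3.73 and was at 0 in all KO libraries, and Trim30d one of 3.52, both in the Trim cluster whose members resemble each other. Fam3b, a secreted protein of the pancreas, had a difference of 3.91, with 0 tags in wild type at 0 h, 409, 371 and 591 at 18 h, and 9430, 8799 and 9340 tags in the KO at 18 h. In wild type 33.4% of its 18 h value lay in regions that also cover Bace2 and Mx1. C9, a complement component, had a difference of 3.42, and its wild-type values at 0 h were 9.71, 46.6 and 101 tags, a wide spread. Of its wild-type 0 h value 61.2% lay in regions that also cover Dab2.

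C9 was also 1 of the 4 genes called in opposite directions in the genotypes. Also among them, and named after their values were seen, were Dcbld2, with log2 changes of -1.24 in wild type and 1.93 in the KO, and Pfdn6, with 1.40 and -1.15.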

How the results depend on the processing

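Counts are given as higher and then lower at 18 h in wild type, unless stated. With a fold limit dropped and the adjusted p alone, they were 4439 and 4447, among windows that overlap no other gene 1066 and 1195, and within 500 bp of the start 477 and 534. A pseudocount of 50 gave 1238 higher and 993 lower. In the KO the same 3 settings gave 3761 and 5651, 1118 and 1511, and 472 and 707, a pseudocount of 50 gave 1312 lower, and subtracting the input gave 2780 higher. Interaction counts, more positive and then more negative in the KO, were 658 and 1342 with p alone, 23 and 38 at the start, 91 and 98 with a pseudocount of 50, and 2419 and 145 with the input subtracted. They were 121 positive among genes found in every library, 162 negative without overlapping windows, 158 negative with median centring and 168 with quantile normalization. H3K27ac gave 2773 and 3113 with p alone, 422 and 494 within 500 bp, 492 and 370 with a pseudocount of 50, 474 higher without overlapping windows, and 600 lower among starts found in every library. The ratio gave 2224 and 2402 with p alone, 752 and 875 without overlapping windows, and 808 lower with a pseudocount of 50.

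The median change was 0 with no filter, 0.0284 among genes found in every library, -0.0753 with median centring, -0.0193 with quantile normalization, -0.1954 with the input subtracted, 0.0169 with a common density floor, -0.0137 without overlapping windows, 0.0476 at the start and -0.0263 in the body. Leaving out each library in turn gave 1543 to 1788 higher and 1800 to 2081 lower genes in wild type, 1665 to 1743 and 2351 to 2537 in the KO, 222 to 276 and 208 to 303 for the interaction, 731 to 765 and 978 to 1061 for H3K27ac, 1130 to 1250 and 1344 to 1515 for the ratio, and medians of -0.0661 to 0.0435.

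Of the 128 genes named, 84 kept both their direction and their call, or stayed uncalled in the same direction, under every alternative that gave a value. In 9 more (Cd74, Fosb, Fth1, Ier5, Irf3, Mitf, Nfkb1, Tgfbi and Tlr7) a value called in neither setting changed sign, 28 times in all, 6 of them within 500 bp of the start. Among called genes a change of sign was seen within 500 bp of the start for Ccnb2 (0.14), Lrrc8c (-0.99), Mef2a (0.054), Nop58 (0.71), Pparg (0.17) and Runx1 (0.79), and in the body for Mcm5 (-3.67). Calls were lost without a change of sign 32 times, of which 19 were within 500 bp of the start, and gained 4 times, for Tlr4 with quantile normalization (-1.34) and with the input subtracted (-1.47) among them. The cause of these changes was not tested.

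Same-numbered libraries of 0 and 18 h shared only a number, with correlations of their deviations of 0.042, 0.06 and 0.021 over 10648 genes, and a replicate block gave 1690 higher and 1888 lower genes and changed no call of a named gene. Each library correlated best with its own number, as a hint from the data and not from the design. Regions carry no counts, so depth limits what a value of 0 means: it is the absence of a called region. The input could not be subtracted in the ratio, which has no such value.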
